A study of Danio rerio with 6 samples.

Results

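RNA sequencing of whole zebrafish larvae at 4 dpf (days post fertilization) compared 3 WT samples of the AB strain with 3 samples homozygous for *flt1*ka601, an allele made by CRISPR/Cas in an exon shared by membrane-bound and soluble Flt1. Both genotypes carried the endothelial reporter Tg(kdrl:eGFP)s843, and the labels give no strain for the mutants, so that strain and genotype cannot be told apart. How many larvae made up a sample is not given in the sources used here, and whether the replicates came from separate clutches is not stated either, so that the spread between replicates measures only these samples. This account describes 81 transcripts of 80 genes, out of 54869 Ensembl transcripts counted, that carry an ordinary gene name and were higher in the mutants.

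The members were chosen by their measured levels. The authors' deposited tables of differential expression name 424 transcripts, 238 of them with a gene name that is neither a clone nor an identifier with a colon. Of these 238, 103 had a mean of at least 20 reads over the 6 samples, a level in every mutant above that in every WT sample, and a mean level in mutants at least 2 times that in WT. Levels are CPM, read counts scaled to library size by the TMM method, which also adjusts for differences in composition between samples. Of the 103, 15 transcripts of globin, spindle, S phase and angiogenic genes and 7 structural RNAs were left out, and the other 81 are the members. Because the rule used the contrast of mutant against WT, levels and fold changes of the members are a description and no test of them is given. For the same reason 77 of the 81 members with an adjusted p under 0.05 in the fit over all transcripts (edgeR's quasi-likelihood test), against 5.44% of all 21029 tested transcripts called higher, is a result of how the members were chosen. Every mutant was above every WT sample for 16.8% of the tested transcripts, and for all 81 members by the rule. The criteria of the rule, without regard to names, held for 1.21% of the 18081 transcripts whose mean reached 20 reads, and 1.26% of the tested transcripts were called higher with at least a 2-fold change. All 81 passed the filter on low counts. Over all tested transcripts, 4.31% were called lower and 15.8% had every mutant below every WT sample. The 424 named transcripts are there because they passed a threshold of the authors, and among them 220 had every mutant above every WT sample and 182 every mutant below, with 202 called higher and 146 lower. Counts over named transcripts are to be read against these.

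Flt1 is a receptor of Vegfa, and its soluble form acts as a decoy that limits how much ligand reaches the signalling receptor Kdrl, so that larvae without it form surplus vessel branches. None of the members is named as a ligand or receptor of that pathway. The rule, however, left out PGF, placental growth factor, by name. The paper describes it as a ligand specific to Flt1 and reports its gene as upregulated in these mutants. PGF thus could not be among the members whatever its level, so that nothing is read from its absence there. In order of number, they comprise core histones and chromatin proteins, genes of cell death and immunity, enzymes of vitamin D, cytochrome P450 and sugar metabolism, genes of DNA replication and repair, genes of the centromere and spindle, extracellular matrix and coagulation genes, and clustered protocadherins. Replication-dependent histone genes are transcribed mainly while a cell copies its DNA, and genes of the centromere and spindle are transcribed mainly in cells that prepare to divide. The libraries were made with a TruSeq kit, and how much of the histone RNA it captured was not tested. Histone counts are thus not read as a measure of DNA copying. In RNA of whole larvae, more cells of a type and more RNA per cell cannot be told apart.

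Between 10655504 and 14936523 reads per sample fell on transcripts, and 33 members had a mean under 50 reads per sample. Transcripts of *flt1* itself carry no name in the tables, and their level was not analysed here. Reads that fit several transcripts or positions are in no transcript's count, which lowers the level of genes with near-identical copies. The same holds where transcripts of 1 gene share exons, so that a member's count is not the level of its gene. Between 7481128 and 9722394 reads per sample were ambiguous between transcripts. Alignments that were not unique numbered 52587271 in WT replicate 1 and between 30406517 and 39159982 in the other samples. What this imbalance does to the levels of near-identical copies was not tested. Of the members 17 carry a copy number in their name, such as H2AFY (2 of 16), and their values are also uncertain because of reads shared between copies. The ratio of mean mutant to mean WT level had a median of 2.26 over the 80 members with WT reads, beside a median log2 fold change of -0.01 over all tested transcripts. In 57 members it lay under 2.5, in 9 between 2.5 and 3, in 7 between 3 and 4 and in 8 at 4 or above. Just inside the limit of 2 were *eogt* with a ratio of 2.02 and *ptgr1* with 2.02, and just outside it were the complement gene C7 (2 of 2) with 1.98 and *smyd4* with 1.97. In 18 members the lowest mutant was at least 2 times the highest WT sample, and in 4 it was less than 1.2 times that sample. At that end stood *znf395*, whose highest WT sample, at 3.69 CPM, was level with its lowest mutant to 3 digits.

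**Figure D1:**
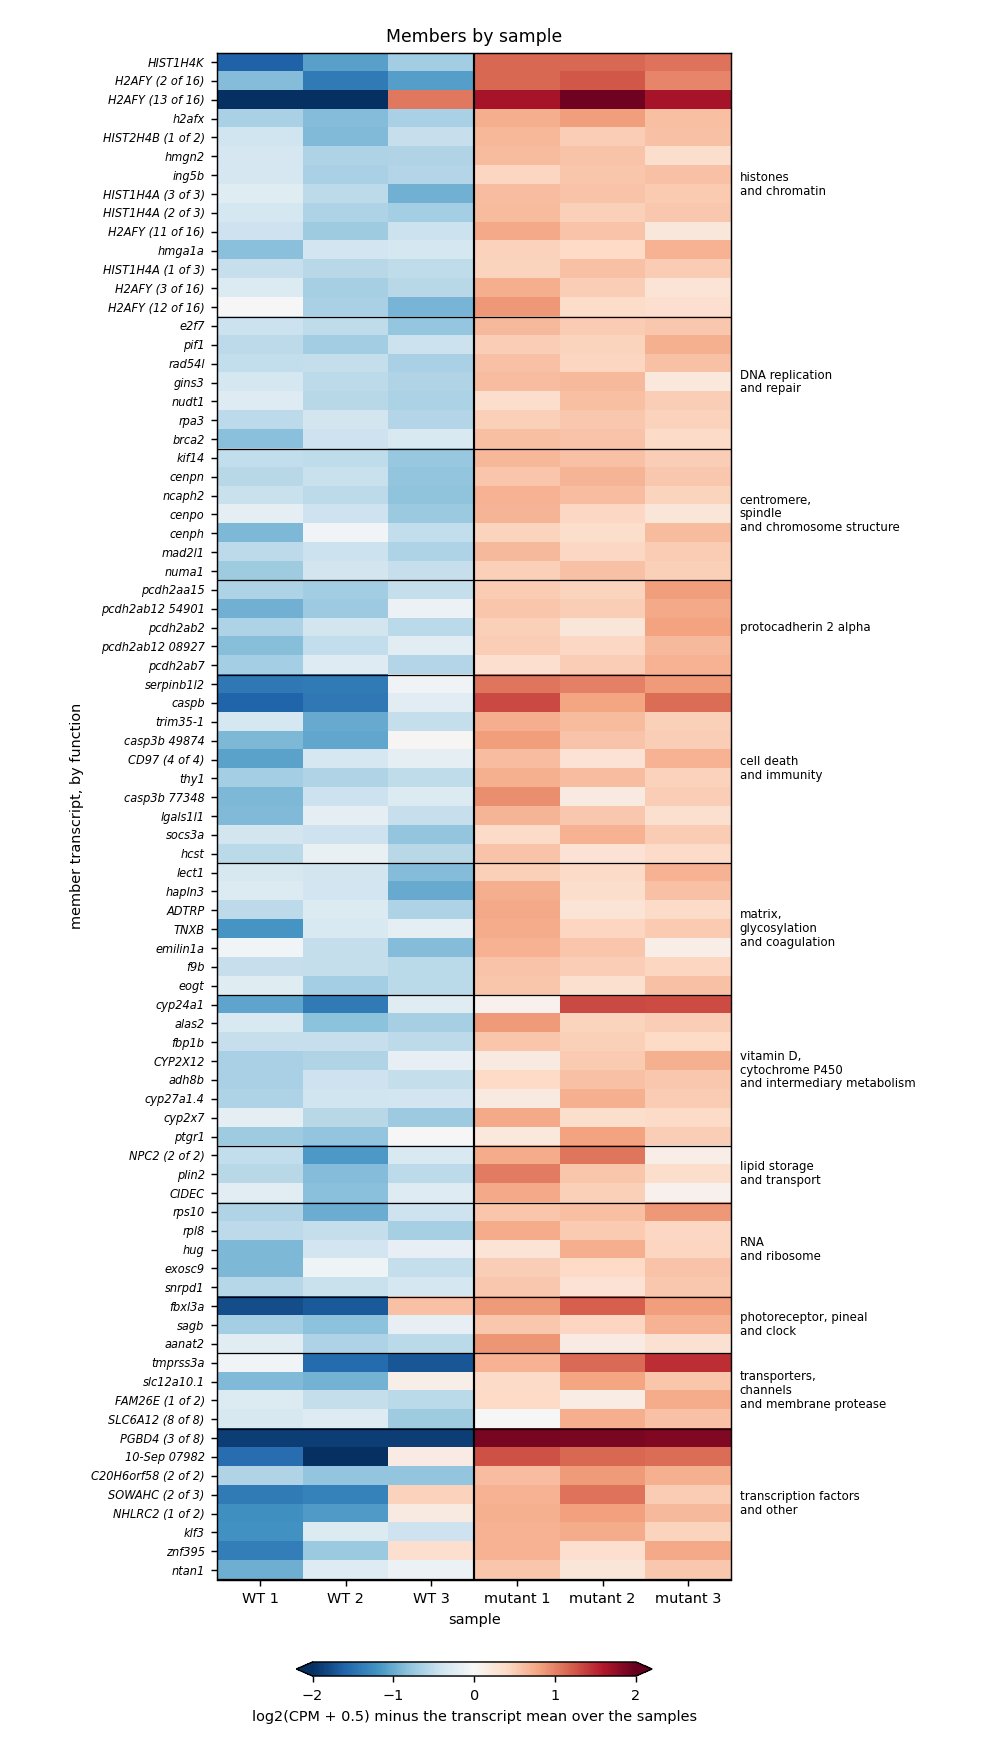
Levels of all 81 members (rows, grouped by function and ordered by ratio within a group) in the 6 samples (columns), as log2(CPM + 0.5) minus the mean of that transcript over the samples, with red for higher and blue for lower. Where a name stands for 2 transcripts, the last 5 digits of the transcript follow it. In each row every mutant stands above every WT sample because the rule asked for it. WT replicate 3 is closer to the mutants than the other WT samples in rows such as H2AFY (13 of 16), *fbxl3a* and SOWAHC (2 of 3).

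The largest function group was that of histones. The 14 transcripts for histones and chromatin proteins had ratios from 2.03 to 4.87, with a median of 2.2, and means of 59.7 to 1266 reads, and include 4 copies named for histone H4 as HIST1H4A or HIST2H4B, the H4 transcript HIST1H4K, 5 copies named H2AFY and the variant *h2afx*. HIST1H4K (ENSDART00000121838) was at 5.31, 7.88 and 10.4 CPM in the WT samples and at 39, 38.7 and 37.3 CPM in the mutants. The mutants lay within a narrow band, and the lowest of them was 3.58 times the highest WT sample. Its log2 fold change was 2.30 (standard error 0.18). H2AFY (2 of 16) was at 18, 12.1 and 15.2 CPM in the WT samples and at 74.4, 79.2 and 65.8 CPM in the mutants, with a log2 fold change of 2.27 (standard error 0.13). H2AFY is the symbol of macroH2A, a histone variant of inactive chromatin. The deposited tables describe copy 3 of 16 as histone H2A-like, and the reference table names its gene *hist1h2a4*, so that the name does not settle whether these copies are macroH2A or ordinary H2A. The 3 copies H2AFY (3 of 16), H2AFY (11 of 16) and H2AFY (12 of 16) had smaller differences, with ratios of 2.04, 2.09 and 2.03. H2AFY (12 of 16) was the most counted member, at 95.3, 59.8 and 49.4 CPM in the WT samples and at 174, 122 and 119 CPM in the mutants. WT replicate 1 and mutant replicate 1 stood above their groups for this copy, and the lowest mutant was 1.252 times the highest WT sample.

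The remaining H4 transcripts lay close to 2-fold. HIST1H4A (3 of 3) was at 56.2, 46.4 and 34.2 CPM in the WT samples and at 103, 99.8 and 96 CPM in the mutants. Among the other copies, HIST1H4A (2 of 3) had a ratio of 2.15 and HIST2H4B (1 of 2) one of 2.25. In WT the level of HIST1H4A (3 of 3) ran from replicate to replicate over a wider range than in the mutants. HIST1H4A (1 of 3) was tighter, with 18.4 ± 0.642 CPM in WT and 38 ± 1.84 CPM in mutants (mean ± SD, n = 3 each). *h2afx*, the variant that is phosphorylated at DNA double-strand breaks, was at 19.8, 17.1 and 19.9 CPM in the WT samples and at 52.4, 56.5 and 47.7 CPM in the mutants, with a log2 fold change of 1.46 (standard error 0.10). Both genotypes were tight and well apart, by a factor of 2.4 between the nearest samples. Its level per length was the highest among the 26 members for which the authors' deposited Cuffdiff table gives FPKM (fragments scaled to transcript length and library size), at 21 in WT and 58.8 in mutants. The nucleosome-binding protein *hmgn2* had a ratio of 2.22, *ing5b*, a subunit of histone acetyltransferase complexes, 2.22, and *hmga1a*, an AT-hook protein that bends DNA, 2.08.

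Other named histone transcripts, outside the members, were looked at for their direction. The deposited tables name 22 histone transcripts in all, of which 11 are members and 11 have an identifier with a colon for a name. Of these 22, 21 had every mutant above every WT sample and 20 were called higher in mutants by edgeR (adjusted p under 0.05), beside 0 called lower. The 11 members among them were chosen for this pattern. Of the other 11, 10 had every mutant above and 10 were called higher, beside 220 and 202 of all 424 named transcripts. The histone H2B transcript ENSDART00000136970 of zgc:171759 was among them, at 32.1, 15.6 and 24.5 CPM in the WT samples and at 89.95, 69.5 and 69.5 CPM in the mutants. The exception was 1 of the H4-like transcripts of zgc:165555, ENSDART00000126086, where the genotypes overlapped. It was at 7.38, 10.9 and 8.61 CPM in the WT samples and at 10.09, 8.91 and 12.1 CPM in the mutants, a ratio of 1.16. The authors' FPKM for this transcript ran the other way, at 26.5 in WT and 4.2 in mutants. The cause of this disagreement between the measures was not tested. A transcript is named in these tables only if it passed a threshold of the authors, so that histone transcripts without a change could not appear in this count.

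**Figure D2:**
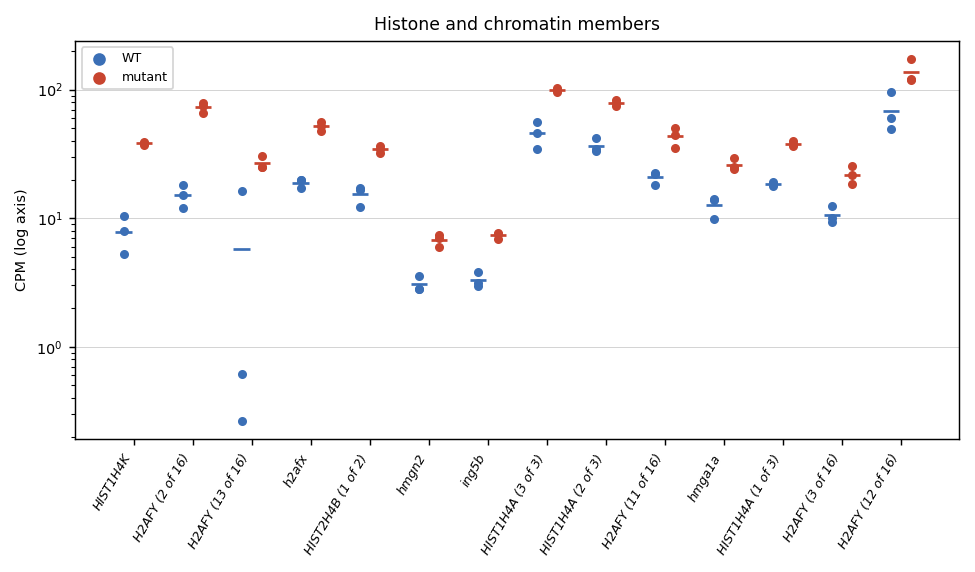
CPM (log axis) of the 14 histone and chromatin members in each sample, with points for the samples and a bar for the mean of the 3 WT (blue) or 3 mutant (red) samples. HIST1H4K and H2AFY (2 of 16) have the widest gap between genotypes, and H2AFY (13 of 16) has 1 WT sample far above the others.

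Genes that copy and repair DNA formed a group of 7 members with ratios from 2.05 to 2.74. *e2f7*, an atypical E2F factor that represses genes of the cell cycle and has also been linked to *vegfaa* transcription, had the highest ratio. It was at 1.23, 1.14 and 0.851 CPM in the WT samples and at 3.15, 2.79 and 2.87 CPM in the mutants, on 9 to 16 reads per WT sample. *pif1*, a helicase of nuclear and mitochondrial DNA, was at 1.85, 1.58 and 1.99 CPM in the WT samples and at 4.22, 4.05 and 4.96 CPM in the mutants. The groups did not come near each other for either gene, with the lowest mutant 2.27 and 2.04 times the highest WT sample. *rad54l*, which remodels DNA during homologous recombination, was at 5.77, 5.87 and 5.11 CPM in the WT samples and at 12.8, 11.4 and 12.8 CPM in the mutants, with a log2 fold change of 1.14 (standard error 0.13). *brca2*, which acts in the repair of broken DNA, was the most counted of the group, at 18.1, 24.4 and 26.4 CPM in the WT samples and at 50.02, 48.6 and 42.6 CPM in the mutants. WT replicate 1 was the lowest WT sample for *brca2*. *gins3*, a subunit of the replicative helicase, had 3.6 ± 0.354 CPM in WT and 7.68 ± 1.3 CPM in mutants. *rpa3*, a subunit of the protein that coats single-stranded DNA, had 4.08 ± 0.35 CPM in WT and 8.57 ± 0.294 CPM in mutants, and *nudt1*, which clears oxidized nucleotides, had a ratio of 2.1.

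The 7 members of the centromere, the spindle and chromosome structure had ratios from 2.05 to 2.64. *kif14*, a kinesin of cytokinesis, was at 1.69, 1.66 and 1.32 CPM in the WT samples and at 4.37, 4.14 and 3.83 CPM in the mutants. *cenpn*, a kinetochore protein that binds the centromeric nucleosome, was at 3.77, 4.12 and 3.12 CPM in the WT samples and at 8.66, 9.54 and 8.62 CPM in the mutants, with a log2 fold change of 1.28 (standard error 0.16). For both the mutants lay close together, and the lowest mutant was 2.27 times the highest WT sample for *kif14* and 2.09 times for *cenpn*. The other inner kinetochore genes *cenpo* and *cenph* were less counted and wider in spread, with ratios of 2.17 and 2.12. *mad2l1*, a checkpoint protein that delays anaphase, was at 10.2, 11 and 9.46 CPM in the WT samples and at 23.5, 19.9 and 21.3 CPM in the mutants, with a log2 fold change of 1.08 (standard error 0.11). *ncaph2*, a subunit of condensin II, which compacts chromosomes, had 8.33 ± 1.11 CPM in WT and 19.5 ± 1.71 CPM in mutants. *numa1*, which anchors microtubules at spindle poles, had 16.3 ± 2.08 CPM in WT and 33.5 ± 1.41 CPM in mutants. In this group 0 of 7 members had WT replicate 3 as the highest WT sample, and in the histone group 4 of 14 had it. Over all tested transcripts it was the highest WT sample for 37.2%. A further 8 named transcripts of spindle and S phase genes, *kif11* and *rrm2* among them, met the same criteria and are outside the members, so that the 14 genes of replication, repair, centromere and spindle are a part of those named.

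**Figure D3:**
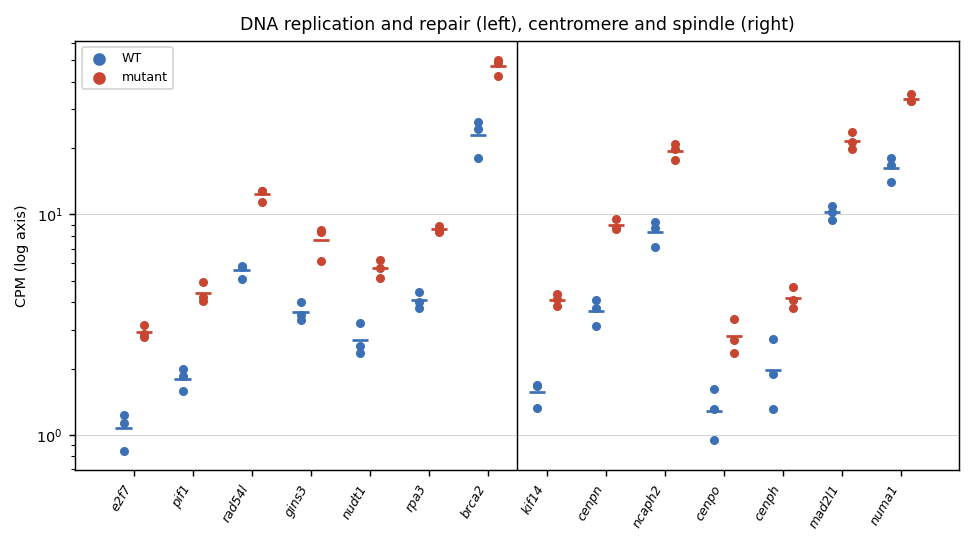
CPM (log axis) of the 7 members of DNA replication and repair (left) and the 7 of the centromere, spindle and chromosome structure (right), with points for the samples and a bar for the mean of 3 WT (blue) or 3 mutant (red) samples. No mutant point lies below a WT point of the same gene, as the rule required.

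Clustered protocadherins gave 5 members. These cell adhesion proteins are made from arrays of variable exons, each with its own promoter, that are spliced to shared constant exons, and in vertebrate neurons the set a cell expresses gives it an identity. Reads on the shared exons fit several transcripts and so would enter no transcript's count. They belong to the alpha cluster of the second zebrafish locus. *pcdh2aa15* was at 1.23, 1.14 and 1.42 CPM in the WT samples and at 3.29, 3.15 and 4.27 CPM in the mutants. *pcdh2ab2* was at 4.46, 5.43 and 4.73 CPM in the WT samples and at 10.2, 8.55 and 12.8 CPM in the mutants. *pcdh2ab7* was at 9.3, 12.7 and 9.93 CPM in the WT samples and at 19.3, 21.5 and 25.1 CPM in the mutants, with a log2 fold change of 1.04 (standard error 0.14). Mutant replicate 3 was the highest sample for these 3 genes and for both transcripts of *pcdh2ab12*. The transcripts of *pcdh2ab12*, listed under 2 gene identifiers, had 4.32 ± 1.53 CPM in WT and 10.3 ± 1.07 CPM in mutants for ENSDART00000054901 and 8.57 ± 1.94 CPM in WT and 17.9 ± 1.47 CPM in mutants for ENSDART00000108927.

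The deposited tables name 13 transcripts of clustered protocadherins, 7 with every mutant above every WT sample and 6 with every mutant below. By the same edgeR call, 7 of the 13 were higher and 5 lower. Both splits are near those of all 424 named transcripts, and 5 of the 7 higher ones are members chosen for being higher. Apart from the members, *pcdh2aa3*, with a mean under 20 reads, and the clone-named AL929558.3 were higher, with ratios of 3.06 and 2.02. The lower protocadherins were *pcdh2ab3*, *pcdh2ab5*, *pcdh2ab8*, *pcdh2g1*, *pcdh2g4* and BX119910.1, with *pcdh2g4* short of the threshold. *pcdh2ab8* was at 19.9, 20.9 and 16.9 CPM in the WT samples and at 9.52, 8.37 and 4.88 CPM in the mutants, and its WT level was 2.54 times that of the mutants. *pcdh2ab5* was at 7.46, 5.34 and 5.01 CPM in the WT samples and at 2.79, 2.52 and 0.958 CPM in the mutants. Mutant replicate 3, the highest for the members, was the lowest sample for all 6 of the lower transcripts. In the RefSeq annotation of assembly GRCz12tu, the 4 member genes share the coordinate of 1 boundary and have 4 different ones at the other. The strand was not taken into account, so the shared boundary is not to be read as a shared start of transcription. Their span overlaps 11 *pcdh2* genes and 7 of the 10 protocadherin genes that the deposited tables name. The cause of the opposite directions was not tested.

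**Figure D4:**
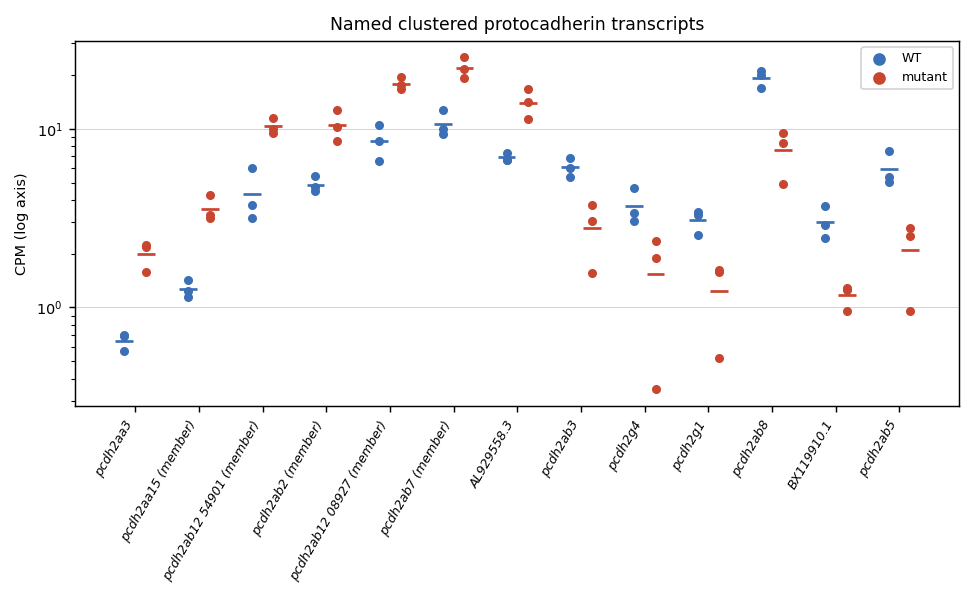
CPM (log axis) of the 13 named clustered protocadherin transcripts in each sample, ordered by the ratio of mutant to WT, with points for the samples and a bar for the mean of 3 WT (blue) or 3 mutant (red) samples; the 5 members are marked, and where a name stands for 2 transcripts the last 5 digits follow it. Mutants lie above WT in the first 7 and below WT in the last 6.

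Genes of cell death and immunity made up 10 members, 8 of them with mutant replicate 1 as the highest mutant. That sample was the highest mutant for 39 of all 81 members and for 36.4% of all tested transcripts. *caspb*, an inflammatory caspase of fish, was at 5.23, 5.96 and 14.5 CPM in the WT samples and at 43, 29.6 and 37.2 CPM in the mutants. WT replicate 3 stood above the other WT samples and below every mutant. Its log2 fold change was 2.12 (standard error 0.30), and 2.72 without WT replicate 3. *trim35-1*, of a family of ubiquitin ligases, was at 1.38, 0.701 and 1.23 CPM in the WT samples and at 3.51, 3.24 and 2.87 CPM in the mutants. In the RefSeq annotation 2 protein-coding genes lie between *trim35-1* and *caspb*. A further near pair of members, *exosc9* and *klf3* of different function groups, had 7 between. How many near pairs other genes give was not counted. *casp3b*, an executioner caspase, is the gene with 2 member transcripts under the same identifier. ENSDART00000149874 had 1.3 ± 0.765 CPM in WT and 3.62 ± 0.529 CPM in mutants, and ENSDART00000077348 had 3.37 ± 0.826 CPM in WT and 7.72 ± 2.19 CPM in mutants. For both, WT replicate 3 was the highest WT sample and mutant replicate 1 the highest mutant. *serpinb1l2*, an inhibitor of proteases, was at 0.692, 0.701 and 2.55 CPM in the WT samples and at 6.23, 5.94 and 5.31 CPM in the mutants. Its log2 fold change of 2.19 (standard error 0.37) was 3.05 without WT replicate 3.

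The other members of this group were of the cell surface or of signalling. *socs3a*, a feedback inhibitor of cytokine signalling, was the most counted, at 24.1, 23.5 and 17.9 CPM in the WT samples and at 41.1, 51.1 and 44.7 CPM in the mutants, with a log2 fold change of 1.06 (standard error 0.13). *thy1*, a surface protein of neurons and lymphocytes in mammals, was at 8.92, 9.46 and 10.12 CPM in the WT samples and at 24.3, 22.7 and 20.4 CPM in the mutants. Samples of either genotype were close to each other, and the lowest mutant was 2.01 times the highest WT sample. The galectin *lgals1l1* had a ratio of 2.12, CD97 (4 of 4), named for an adhesion receptor of leukocytes, 2.38, and *hcst*, an adaptor of receptors of natural killer cells in mammals, 2.05.

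The 8 members of metabolism ranged from 2.02 to 3.62 in ratio. *cyp24a1*, which inactivates vitamin D, was at 10.9, 8.32 and 19.6 CPM in the WT samples and at 24.7, 58.4 and 57.6 CPM in the mutants. Mutant replicate 1 was far below the other mutants and closer to WT replicate 3 than to them. The log2 fold change was 1.86 (standard error 0.34). *adh8b*, an alcohol dehydrogenase, had the highest counts of the group and was at 40.7, 47.7 and 45.8 CPM in the WT samples and at 84.5, 96.6 and 93.6 CPM in the mutants, with a log2 fold change of 1.03 (standard error 0.09). *fbp1b*, an enzyme of gluconeogenesis, was tight in both genotypes, with 1.28 ± 0.0468 CPM in WT and 2.97 ± 0.181 CPM in mutants. The cytochrome P450 transcripts CYP2X12, *cyp27a1.4* and *cyp2x7* had ratios of 2.28, 2.04 and 2.04. For *ptgr1*, which reduces prostaglandin metabolites, the lowest mutant was 1.17 times the highest WT sample, WT replicate 3. *alas2*, the first enzyme of heme synthesis in red cells, was at 16.1, 11.1 and 12.6 CPM in the WT samples and at 36.8, 27.4 and 28.7 CPM in the mutants. All 4 named embryonic globin transcripts, which the rule left out by name, had every mutant above every WT sample. Of all 424 named transcripts, 220 did so, and all are named because they passed a threshold of the authors. Whether the globins and *alas2* go together was not tested.

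Among genes of lipid storage and transport, *plin2*, which coats lipid droplets, was at 2.31, 1.75 and 2.36 CPM in the WT samples and at 8.02, 5.58 and 4.79 CPM in the mutants. CIDEC, which makes droplets grow, was at 1.85, 1.05 and 1.8 CPM in the WT samples and at 4.15, 3.33 and 2.44 CPM in the mutants. NPC2 (2 of 2), named for the lysosomal cholesterol carrier, was at 1.54, 0.788 and 1.8 CPM in the WT samples and at 4.29, 5.49 and 2.61 CPM in the mutants. All 3 stood on means of 29.7 to 50.7 reads. In CPM the mutants, which also had the higher means, spread more widely than WT.

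The 7 members of extracellular matrix, glycosylation and coagulation had ratios from 2.02 to 2.46. *lect1*, known in mammals as chondromodulin, a cartilage protein that inhibits vessel growth, was at 1.46, 1.4 and 0.851 CPM in the WT samples and at 2.93, 2.7 and 3.48 CPM in the mutants. *hapln3*, which links hyaluronan to proteoglycans, was at 2.84, 2.63 and 1.51 CPM in the WT samples and at 6.23, 4.68 and 5.57 CPM in the mutants. WT replicate 3 was the lowest sample for both. TNXB, named for tenascin X, was at 13.9, 25.8 and 28 CPM in the WT samples and at 53.8, 43.3 and 46.4 CPM in the mutants, with WT replicate 1 far below the other WT samples. *emilin1a*, of elastic fibres, had its lowest mutant at 1.17 times the highest WT sample. *f9b*, coagulation factor IX, was at 13.3, 13.1 and 12.6 CPM in the WT samples and at 27.8, 26.5 and 25.2 CPM in the mutants, with a log2 fold change of 1.02 (standard error 0.09). The samples of either genotype lay close together for *f9b*. ADTRP, which in mammals regulates the coagulation inhibitor TFPI, had 1.86 ± 0.301 CPM in WT and 4.06 ± 0.84 CPM in mutants. *eogt*, which adds sugar to EGF repeats such as those of Notch, had 7.87 ± 1.36 CPM in WT and 15.9 ± 1.59 CPM in mutants.

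Members of RNA and ribosome function were 5. The *rps10* transcript was at 0.846, 0.526 and 1.04 CPM in the WT samples and at 2.5, 2.61 and 3.22 CPM in the mutants, on 6 to 11 reads per WT sample, and the *rpl8* transcript at 2.54, 2.63 and 2.27 CPM in the WT samples and at 6.8, 5.76 and 5.31 CPM in the mutants. Both genes encode ribosomal proteins, and these counts are of a single transcript each. *hug*, which is named as an RNA-binding protein of the ELAV family, had 1.23 ± 0.426 CPM in WT and 2.83 ± 0.54 CPM in mutants. The exosome subunit *exosc9* had 3.85 ± 1.2 CPM in WT and 7.87 ± 0.492 CPM in mutants, and the spliceosomal protein *snrpd1* had 3.05 ± 0.272 CPM in WT and 6.17 ± 0.67 CPM in mutants. For *exosc9*, WT replicate 2 was the highest WT sample, and the lowest mutant was 1.45 times that level.

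Genes of light sensing and the daily clock were 3. *aanat2*, the pineal enzyme of melatonin synthesis, was at 1.54, 1.05 and 1.14 CPM in the WT samples and at 3.86, 2.16 and 2.44 CPM in the mutants. *sagb*, an arrestin of photoreceptors, was at 2.54, 2.28 and 3.88 CPM in the WT samples and at 6.58, 6.12 and 7.4 CPM in the mutants. *fbxl3a* belongs to a ubiquitin ligase that in mammals degrades cryptochromes, and was at 0.538, 0.613 and 4.82 CPM in the WT samples and at 5.94, 7.65 and 5.84 CPM in the mutants. In *fbxl3a* WT replicate 3 lay at nearly the level of the mutants and far above the other WT samples. Outside the members, the named clock gene *cry5* was called lower by edgeR, and the named phototransduction genes *guca1d* and *opn1lw1* were not called. The labels give no hour of collection.

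Of the transporters and membrane proteins, the 4 members had means of 26.2 to 35.8 reads. *tmprss3a*, a serine protease of the cell membrane, had the highest ratio of all members with WT reads, 6.89, and was at 1.38, 0.175 and 0.0946 CPM in the WT samples and at 2.65, 3.78 and 4.96 CPM in the mutants. The value rested on 18, 2 and 1 reads in WT and 37, 42 and 57 in the mutants. WT replicate 1 was above the other WT samples, and without it the log2 fold change of 2.64 (standard error 0.56) became 4.68. *slc12a10.1*, of the cation-chloride cotransporters, was at 0.846, 0.788 and 2.18 CPM in the WT samples and at 2.72, 3.78 and 3.14 CPM in the mutants. FAM26E (1 of 2), of the CALHM family of channels, had 1.47 ± 0.194 CPM in WT and 3.12 ± 0.751 CPM in mutants, and SLC6A12 (8 of 8), named for a transporter of betaine, had 1.98 ± 0.41 CPM in WT and 4.06 ± 1.13 CPM in mutants.

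The last 8 members share no function. PGBD4 (3 of 8), derived from a piggyBac transposon, had 0, 0 and 0 reads in WT and 89, 70 and 70 in the mutants. Against a floor of 3 reads in each WT library it was at least 24.1-fold higher in mutants. PGBD4 (4 of 8), the other copy named in the tables, was at 6.38, 6.92 and 2.74 CPM in the WT samples and at 3.94, 3.42 and 3.57 CPM in the mutants, where the genotypes overlapped. A transcript listed as 10-Sep, the form into which spreadsheets turn the symbol of septin 10, and described as septin-10-like (ENSDART00000007982), was at 6.07, 3.68 and 20.8 CPM in the WT samples and at 45.3, 41.7 and 40.4 CPM in the mutants. A transcript of another gene with the same name, ENSDART00000099622, ran the other way, at 33.4, 32.8 and 18.3 CPM in the WT samples and at 9.23, 8.55 and 9.67 CPM in the mutants, and its WT level was 3.08 times that of the mutants. In both, WT replicate 3 was the WT sample nearest to the mutants. Septins are GTPases that form filaments in cell division and under the membrane. C20H6orf58 (2 of 2) was at 1.46, 1.23 and 1.23 CPM in the WT samples and at 4.08, 4.86 and 4.36 CPM in the mutants, and the spread within a genotype was small beside the gap. The repressor *klf3* had 1.47 ± 0.614 CPM in WT and 4.04 ± 0.489 CPM in mutants, and *ntan1*, an amidase that readies proteins for degradation, had 1.61 ± 0.611 CPM in WT and 3.31 ± 0.453 CPM in mutants.

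Single samples decided the level of some members. Leaving out a sample in turn moved the fold change of 10 members by over 1.5 times, 9 of them by the most without WT replicate 3 and *tmprss3a* without WT replicate 1. H2AFY (13 of 16) was at 0.615, 0.263 and 16.4 CPM in the WT samples and at 25, 30.7 and 24.9 CPM in the mutants. The log2 fold change of this copy was 2.30 (standard error 0.75), and 5.86 without WT replicate 3. SOWAHC (2 of 3) was at 0.231, 0.263 and 2.18 CPM in the WT samples and at 2.65, 3.6 and 2.26 CPM in the mutants, and its log2 fold change of 1.74 (standard error 0.58) became 3.47. In both, WT replicate 3 lay far above the other WT samples. For *fbxl3a* the value went from 1.76 (standard error 0.55) to 3.47, for NHLRC2 (1 of 2) from 1.67 (standard error 0.41) to 2.60, and for the septin from 2.09 (standard error 0.42) to 3.10. The zinc finger gene *znf395* went from 1.251 (standard error 0.40) to 2.04 and *slc12a10.1* from 1.36 (standard error 0.35) to 1.95. The 4 members without an adjusted p under 0.05 with all samples were H2AFY (13 of 16), *fbxl3a*, SOWAHC (2 of 3) and *znf395*. Each of the 4 had WT replicate 3 well above the other WT samples and was past the threshold without it. WT replicate 3 was the highest WT sample for 33 of the 81 members and WT replicate 1 for 31, where they were the highest for 37.2% and 33.8% of all tested transcripts. Among mutants, replicate 1 was the highest for 39 of the 81 members and for 36.4% of all tested transcripts. By the count of members that the rule still chose, other samples weighed more, with 60 of the 81 kept without mutant replicate 1, 63 without WT replicate 1 and 68 without WT replicate 3. The cause of these differences between libraries was not tested.

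**Figure D5:**
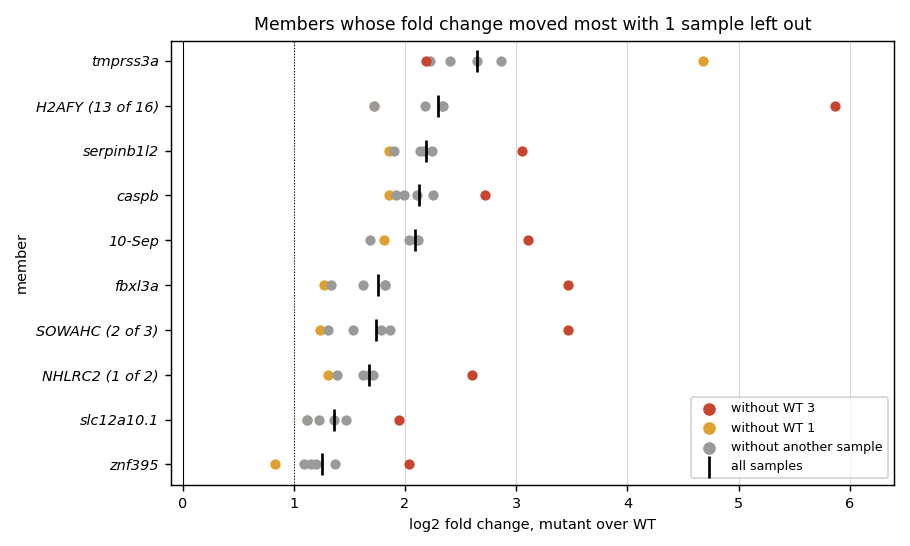
Log2 fold change of mutant over WT (x axis) for the 10 members whose fold moved by over 1.5 times when 1 sample was left out, with a black bar for all samples, red for the fit without WT replicate 3, orange without WT replicate 1 and grey without another sample; the dotted line marks a 2-fold change. For 9 of the members the red point is the farthest from the bar. All points lie above 0, as the choice of members all but required.

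Levels between genes can be set side by side only per length, from the FPKM that the authors' deposited table gives per genotype for 26 members, without replicates. These ran from 0 to 21.0 in WT, with a median of 1.09, and from 0.472 to 58.8 in mutants, with a median of 2.41. By the level in mutants, *h2afx* was followed by *mad2l1*, at 6.7 in WT and 14.1 in mutants. Next were *socs3a*, at 5.72 in WT and 12.2 in mutants, and *cyp24a1*, at 3.03 in WT and 10.7 in mutants. The lowest in mutants was *trim35-1*, at 0.173 in WT and 0.472 in mutants.

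By position, 52 of the 62 member names without a copy number matched a single protein-coding symbol in RefSeq's GRCz12tu annotation. They lay on 22 of 25 chromosomes and 0 of them on the chromosome of *flt1*. The share of all genes on that chromosome was not counted, and members with a copy number were not placed. Nothing is therefore read from the 0. Of 14 lists of tissue and pathway genes with 679 genes in all, the deposited tables name 17 genes, in 18 transcripts, of which edgeR called 8 higher and 6 lower, beside 202 and 146 of all 424 named transcripts. The members among them were *aanat2* of the circadian list, *alas2* of the erythroid list, *socs3a* of the innate immunity list, *sagb* of the phototransduction list and PGBD4 (3 of 8) of the transposon-derived list. Beyond these, the endothelium list had *angpt2a*, *esm1* and *aplnra*, of which edgeR called 2 higher and 0 lower. A gene short of that threshold is not thereby shown to be unchanged. The paper reports all of these endothelial genes as increased in the mutants, by RNA sequencing and by qPCR. Angiogenic genes were left out of the members by name, so that nothing is read from the absence of these genes there. The muscle list had *neb*, *ckma* and *actc1b*, of which 1 was higher and 2 lower. The heat shock, interferon and lens lists had 1 lower transcript each, *serpinh1b*, *irf1b* and *crygm5*, and the circadian list also had *cry5*, which was lower. The phototransduction list further had *guca1d* and *opn1lw1*, which did not pass the threshold. The hypoxia, liver, neuron and skin lists had 0 named genes. The markers that would define tissues in whole larvae are thus largely without a name here, and tissue composition was not analysed.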

How the data were processed

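RNA-seq of whole 4 dpf larvae compared 3 WT with 3 *flt1*ka601 samples. Each sample had 2 technical replicates, which the authors' table holds in 1 column. The submitters' processing notes name TopHat2 2.0.10, Bowtie2 2.1.0, Cufflinks 2.1.1 and HTSeq 0.6.1. They give the genome as Zv9/danRer7, where the methods of the study give GRCz10. The authors deposited raw HTSeq counts per Ensembl transcript, and reads that fit several features or positions enter no count. The authors' deposited DESeq table gives a mean signal per genotype, counts divided by size factors, used only to check the labels of the columns. It matched in 342 transcripts, with a largest difference of 1.1e-07%. The authors' deposited Cuffdiff table gives FPKM per genotype. Both tables also hold the authors' fold changes, p-values and q-values, which were not used. They list only transcripts past the authors' thresholds and are the source of all names.

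The analysis used edgeR 4.0.16 in R 4.3.3. filterByExpr (minimum count 10, total 15, 3 samples) kept 21029 of 54869 transcripts, and TMM factors ran from 0.874 to 1.05. Its quasi-likelihood test compared the genotypes over all 6 samples with Benjamini-Hochberg adjustment. Standard errors were derived from the F statistic and are approximate. A fold against samples without reads used a floor of 3 reads per library. The fit was tested on simulated data.

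The members, their function groups and the 14 gene lists were chosen with earlier results of these data known. Named with values were, in each function group, the 4 members with the largest ratio and the 2 with the highest counts, the 2 transcripts on either side of the limit of 2, members with another named transcript of the gene, and members whose level 1 library decides. Further members are given by mean or ratio so that each is accounted for. Histones and protocadherins outside the members, and the 2 transcripts of the closing observations, were chosen after their values were seen. RefSeq's table (GRCz12tu) was matched by symbol and gave chromosomes, neighbours and the boundaries and overlaps of protocadherin genes. The match left out names with a copy number, so that the gene name given for H2AFY (3 of 16) did not come from it. The alternatives changed 1 choice at a time. The scaling was taken from RLE or upper-quartile factors or from total counts alone, and the test from DESeq2 1.42.0. The filter was dropped or raised to 10 reads in each of the 6 samples, the limits of count and ratio were moved, a block for the replicate number was added, and the samples were left out in turn.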

Additional observations from a re-analysis of the deposited data

How the results depend on the processing

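Of all tested transcripts 1145 were higher and 907 lower, and 77 of the 81 members were called. Scaling by total counts alone gave 1829 higher and 373 lower, so that 83.1% of calls were higher in place of 55.8%. It moved the median log2 fold change of all transcripts from -0.01 to 0.12. WT replicate 1 had the lowest TMM factor, 0.874. Its 5 most counted transcripts held 36.9% of its reads, against 27% to 28.8% in the other samples. The part of this library in the shift was not tested. The other scalings and filters gave 1130 to 1445 higher and 852 to 1311 lower, and DESeq2's Wald test 832 and 693. DESeq2 called 70 members: *aanat2*, *cenpo*, CIDEC, FAM26E (1 of 2), *hcst*, *ntan1*, *tmprss3a* and the septin lost the call, with DESeq2 adjusted p from 0.053 to 0.0877, and *znf395* gained it. With each sample left out in turn, 422 to 1492 were higher and 295 to 1297 lower, and 57 to 79 members were called. The lowest of these counts came without mutant replicate 2 over all transcripts and without mutant replicate 1 over the members, and the highest without WT replicate 3. In all 6 of these fits 51 members were called. No member changed direction in the fits that tested it, which the rule all but required, since every mutant had to lie above every WT sample. The filter of at least 10 counts in every sample tested 67 members and called 66. The rule itself gave 81 members, 61 to 77 without 1 sample, 80 with DESeq2's size factors or upper-quartile factors, 83 with a ratio limit of 1.5, 15 with one of 3, and 48 with a mean of at least 50 reads. The authors named only transcripts past their own threshold of fold change, so that the limit of 1.5 could add few. Samples with the same replicate number deviated together only weakly (correlations 0.0885, 0.0221 and 0.0669), although each correlated best with its own number. Whether samples with the same number also share a clutch or a batch is not stated. With the replicate number as a block, 1270 transcripts were higher and 1082 lower, and 80 members were called. At 20 to 50 reads, the counting error limits what a single member shows.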

Other observations

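Outside the members, 2 gene-named transcripts passed the 2-fold limit and the limit of 20 reads, but the genotypes overlapped in 1 WT sample. *msh4*, a meiotic mismatch repair homologue, had 1, 0 and 36 reads in WT and 52, 37 and 43 in mutants, a ratio of 3.10 with an adjusted p of 0.185 (edgeR's quasi-likelihood test). *gstp2*, a glutathione S-transferase, had 259, 226 and 1264 reads in WT and 1312, 1930 and 2243 in mutants, a ratio of 2.91 with an adjusted p of 0.116 in the same test. In both, WT replicate 3 was the WT sample close to the mutants.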
